A study of Mus musculus with 3 samples.

Results

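CA1 pyramidal nuclei were selected in 3 single-nucleus RNA libraries of mouse hippocampus as nuclei with 500 or more detected genes in which at least 3 of the 6 genes Stac, Mpped1, Fibcd1, Gm2115, Matn2 and Col11a1 had a UMI. The 6 genes also had to sum to 5 or more per 10000 UMIs of the nucleus, and the inhibitory genes Gad1 and Gad2 together to at most 1 per 10000. The rule gave 2892 nuclei of 26480 with 500 or more genes (27426 barcodes in all). These were 1352 of 8621 nuclei in mouse 1, 930 of 13201 in mouse 2 and 610 of 4658 in mouse 3. The members were chosen by measured values, so the 6 marker genes, Gad1 and Gad2 are described here and not tested.

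Each library came from 1 adult female mouse of the genotype Scn8aD/+, heterozygous for the D allele of the sodium channel gene Scn8a, in a model of developmental and epileptic encephalopathy. The titles label all 3 mice as post-onset. Nuclei stained with propidium iodide were sorted before loading on the 10x 3' platform. The 3 mice form 1 group with a batch number each, which leaves mouse and batch inseparable, and no animals of another genotype or stage were analysed here.

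Pyramidal neurons of CA1 form the output stage of the hippocampal loop. They receive CA3 axons on their proximal dendrites and entorhinal axons on their distal tufts, and send their own axons to the subiculum and cortex. They are known for dendrites rich in HCN channels and A-type potassium channels, which limit how far synaptic potentials spread, and for the long-term potentiation of CA3 inputs. Granule neurons of the dentate gyrus and CA3 pyramidal neurons lie upstream in the same loop and were the 2 classes set beside CA1. They were chosen by the same form of rule with their own 6 markers each and held 980 CA3 and 1364 granule nuclei that were not CA1 members.

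CA1 members made up 15.7% of the nuclei with 500 or more genes in mouse 1 (95% exact binomial interval 14.9% to 16.5%), 7.04% in mouse 2 (6.61% to 7.49%) and 13.1% in mouse 3 (12.1% to 14.1%). The intervals cover counting error only. Depth differed between the libraries, with a median of 16876, 6400 and 40938 UMIs per CA1 nucleus in mice 1, 2 and 3 against 7655, 1693 and 23265.5 in the other nuclei. Only 11.8% of members in mouse 3 and 23.2% in mouse 1 rested on exactly 3 detected markers, against 52.3% in mouse 2. The rule was also applied to nuclei with at least 1000 UMIs (8387, 10430 and 4658) after thinning each to 1000. It found 0.739% (0.567% to 0.947%), 0.892% (0.720% to 1.09%) and 0.537% (0.348% to 0.791%). At that depth the need for 3 detected markers is a stricter limit than the threshold on their sum. The fall in the shares was thus set by the form of the rule. Mouse 2, lowest at full depth, was highest at that depth. The order of the mice there was not tested, and overlap of their intervals does not decide it. Doublet scoring marked 139, 67 and 30 of the members, and the 3 libraries shared 36, 13 and 25 cell barcodes by pair (mice 1 and 2, 1 and 3, 2 and 3).

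The rule genes themselves differed in level between mice. Stac, an adaptor protein of calcium channels, stood at 162, 168 and 297 CPM (UMIs per 1000000 UMIs of the summed CA1 nuclei) in mice 1, 2 and 3, against 11.6, 37.2 and 25.9 CPM in the other nuclei. Col11a1, a fibrillar collagen chain, stood at 174, 258 and 457 CPM, highest in mouse 3, and Fibcd1 at 29.4, 10.2 and 2.68 CPM, highest in mouse 1. Mpped1 stood at 213, 183 and 150.4, Gm2115 at 226, 225 and 224 and Matn2 at 214, 192 and 105 CPM. Members just inside the sum threshold (5 to under 6 per 10000) numbered 123, 91 and 55, and nuclei just outside it (4 to under 5) 111, 84 and 61. Man1a, a mannosidase gene and CA1 marker that the rule did not use, was at 511, 356 and 754 CPM just inside and at 415, 322 and 759 CPM just outside.

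Of 10 textbook CA1 genes outside the rule, 6 were abundant enough for the description against other nuclei (at least 20 CPM in CA1 or in other nuclei in every mouse). Ndst4, Man1a, Pou3f1 and Calb1 are among these 6. Spink8 (in mouse 3) and Wfs1 (in every mouse), also given below, missed this minimum. Ndst4, a heparan sulphate modifying enzyme, was at 314, 232 and 255 CPM in CA1 and 69.5, 91.3 and 50.6 CPM in other nuclei. Man1a was at 732, 573 and 779 CPM against 161, 256 and 387 CPM. Both were at least 2-fold higher in every mouse. Pou3f1, a POU-domain transcription factor, was at 33.2, 24.5 and 34.2 against 9.62, 14.2 and 8.22 CPM, and Spink8, a protease inhibitor gene, at 21.4, 25.1 and 16.8 against 6.09, 13.2 and 4.25 CPM. Wfs1, a gene of dorsal CA1, was at 9.40, 10.6 and 10.3 CPM in CA1 and 5.73, 8.51 and 11.7 CPM in the other nuclei, below them in mouse 3. Calb1, the calbindin gene of superficial CA1 cells, was at 43.5, 23.4 and 15.0 CPM in CA1, highest in mouse 1, and at 35.7, 31.6 and 36.0 CPM in the other nuclei, which were above CA1 in mice 2 and 3.

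**Figure D1:**
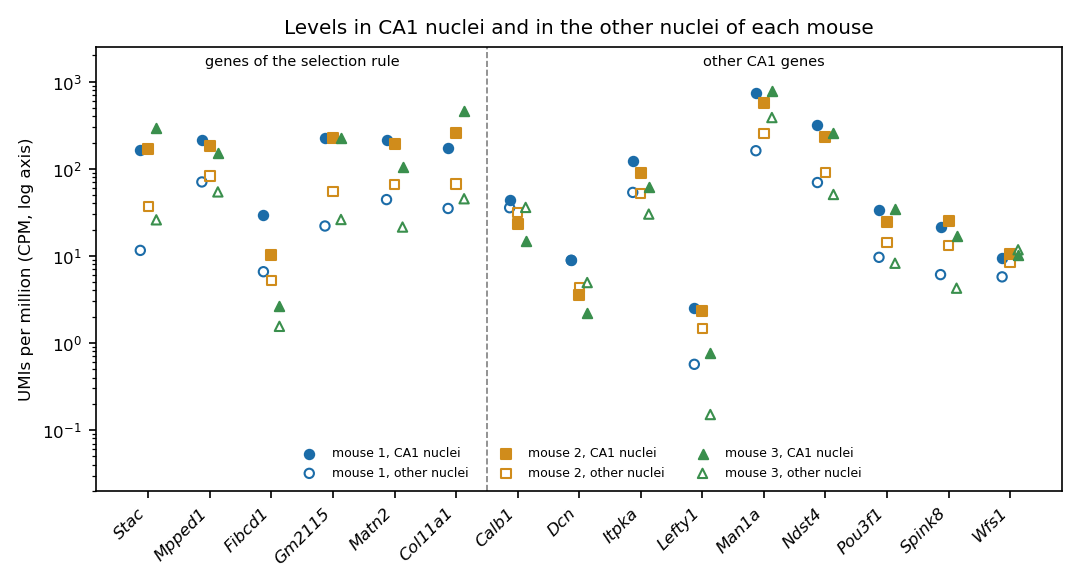
Level of the 6 genes of the selection rule (left of the dashed line) and of 9 other CA1 genes (right) in CPM on a log axis. Filled symbols are the summed CA1 nuclei and open symbols the other nuclei, with blue circles for mouse 1, orange squares for mouse 2 and green triangles for mouse 3. Rule genes were higher in CA1 nuclei of every mouse by choice, Man1a and Ndst4 stand apart from the other nuclei in each mouse, and Wfs1 (10.3 CPM in CA1 of mouse 3) and Calb1 do not.

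Marker lists of other cell types were low but not absent in the members. The 7 inhibitory markers summed to 59.1, 190.4 and 81.8 CPM in CA1 nuclei of mice 1, 2 and 3, which was 4.25%, 14.1% and 6.21% of their sum in other nuclei, and all 7 were lower in each mouse. The 7 oligodendrocyte markers summed to 241, 455 and 153 CPM (17.7%, 35.2% and 24.1%), the 7 astrocyte markers to 118, 170.3 and 281 CPM (28.7%, 46.3% and 41.8%), and the 6 granule markers to 55.2, 127 and 41.1 CPM (10.1%, 28.2% and 6.26%). Each gene of these lists was lower in CA1 in all 3 mice. The 7 microglial markers summed to 48.3, 90.3 and 39.5 CPM and the 6 markers of oligodendrocyte precursors to 16.2, 28.3 and 24.3 CPM. Only 1 endothelial or mural marker in mouse 3 was at 0. In mouse 2, the shallowest library, these lists except that of astrocytes stood highest, and their part in the differences below was not tested.

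Markers of neighbouring glutamatergic cells were not low throughout. The CA2 list summed to 112%, 106% and 216% of its level in other nuclei, but 5, 3 and 2 of its 6 genes were lower in CA1. Rgs14, at 51.5, 31.0 and 34.6 CPM in CA1 against 17.0, 15.4 and 5.33 CPM, made up most of the sum in mice 1 and 3, and Pcp4 was lower in every mouse (9.56, 15.1 and 9.65 against 29.2, 28.9 and 13.0 CPM). The mossy cell list summed to 124%, 103% and 131%, with 5, 5 and 4 of 6 genes lower and Ajap1 higher in every mouse (63.6, 49.5 and 46.0 against 38.7, 37.5 and 30.3 CPM). The CA3 list summed to 49.8%, 70.8% and 75.7%, with 5 of 6 genes lower in each mouse. The subicular list summed to 67.9%, 69.2% and 95.6%, but only 2, 5 and 2 of its 6 genes were lower. Its most abundant genes Tshz2 (183, 149 and 297 against 301, 209 and 334 CPM) and Cntn6 (47.8, 41.4 and 48.6 against 98.8, 96.5 and 77.8 CPM) were lower in every mouse, and Fn1 (39.0, 30.8 and 58.0 against 16.1, 14.6 and 16.7 CPM) was higher in every mouse. The CA3 rule was also met by 46, 59 and 62 of the members, and the subicular rule by 129, 42 and 82 (9.54%, 4.52% and 13.4%). Some members thus also carry subicular or CA3 marker UMIs.

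Against the other nuclei of the same library, 5764 genes were abundant enough to describe, and 284 of them (4.93%) were past 2-fold in the same direction in 3 of 3 mice. Of these, 44 (0.763%) were higher in CA1 and 240 (4.16%) lower. The rule chose the nuclei in this very contrast, so no test is attached. Among the 15 genes highest in the mouse closest to no difference, 4 were predicted genes without a functional name. Gpc5, a glypican of the cell surface, was at 2108, 1169 and 2392 CPM in CA1 against 383, 368 and 582 CPM, and its log2 ratios were 2.46, 1.66 and 2.04 in mice 1, 2 and 3. Ror1, a receptor for Wnt ligands, was at 261, 279 and 176 against 46.4, 97.8 and 40.6 CPM (log2 ratios 2.47, 1.50 and 2.08). Gpr161, a receptor of the primary cilium, was at 73.4, 53.9 and 61.0 against 12.9, 20.7 and 12.2 CPM. Fbn1, the microfibril protein fibrillin, was at 98.9, 73.1 and 145 against 25.5, 28.0 and 32.7 CPM, and Npr3, a clearance receptor for natriuretic peptides, at 69.5, 34.4 and 74.5 against 17.9, 13.3 and 10.3 CPM. Ndst3, a relative of Ndst4 with the same kind of enzyme activity, was at 552, 413 and 524 against 123, 164 and 171 CPM. The urate and hexose transporter Slc2a9 (50.2, 117 and 59.0 CPM), the ciliary gene Cfap100 (57.2, 49.9 and 44.9 CPM), Tmem232 (27.6, 35.8 and 20.9 CPM) and Fyb2 (29.3, 33.0 and 50.4 CPM) completed the named set beside Ndst4.

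The 10 lowest genes in CA1 included 2 predicted genes. Erbb4, the neuregulin receptor of interneurons, was at 42.0, 167 and 61.9 CPM in CA1 against 1096, 1056 and 809 CPM (log2 ratios -4.67, -2.66 and -3.69). Nxph1, a neurexin ligand, was at 15.6, 46.2 and 18.1 against 339, 301 and 237 CPM, and Adarb2, a gene of interneurons of caudal origin, at 44.4, 118 and 45.8 against 903, 843 and 811 CPM. Dlx6os1, a transcript antisense to an interneuron homeobox gene, was at 1.30, 6.13 and 1.66 against 57.1, 55.1 and 38.1 CPM. Kcnmb2, Btbd11, Col19a1 and Ptprm were at 4.78, 14.8 and 9.83, at 1.49, 3.37 and 1.88, at 6.08, 7.77 and 5.17 and at 7.61, 22.0 and 11.1 CPM in CA1. In all 25 named genes, predicted genes included, mouse 2 had the ratio closest to 0. Mouse 2 was also the library in which the inhibitory and oligodendrocyte markers were highest in CA1 nuclei, and their part in these ratios was not tested. The limit on Gad1 and Gad2 keeps inhibitory nuclei out of the members, so genes of inhibitory neurons are low partly by choice.

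**Figure D2:**
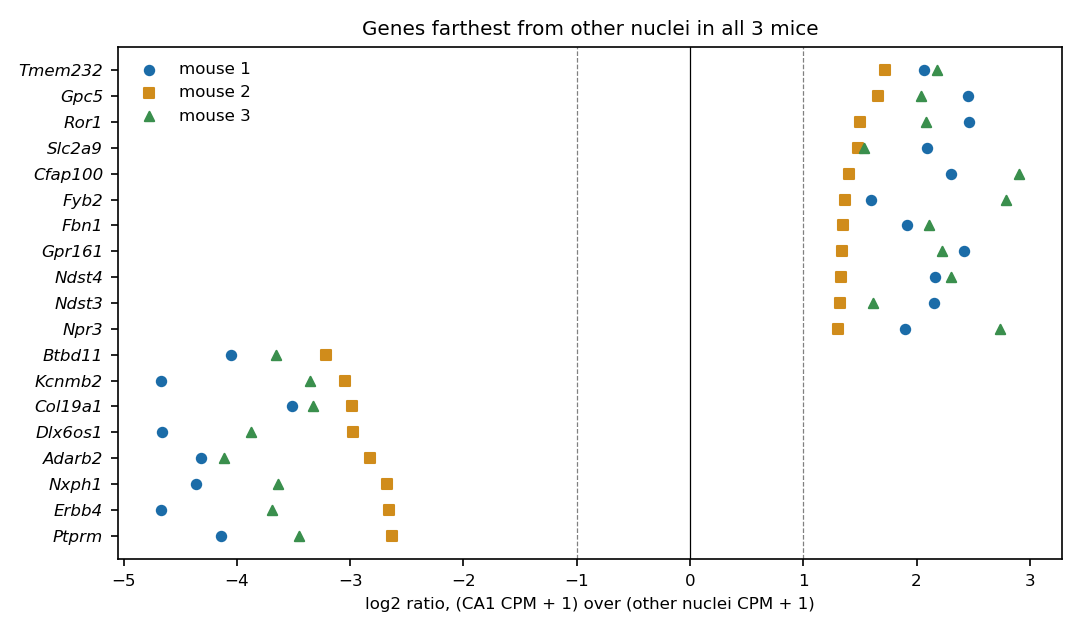
Log2 ratio of CA1 nuclei over the other nuclei of the same library, computed with 1 CPM added to both, for the named genes that are not predicted genes. Each symbol is 1 mouse (circle mouse 1, square mouse 2, triangle mouse 3), and dashed lines mark 2-fold. Gpc5, Ror1 and Tmem232 lie to the right in all 3 mice and Erbb4, Nxph1 and Adarb2 to the left, with mouse 2 nearest 0 throughout.

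Most members of the fixed lists were not past 2-fold against other nuclei. Of all genes described 0.763% were higher and 4.16% lower, and several lists below held larger shares. None was past 2-fold in the lists of glutamatergic identity, GABA-A receptors, activity-regulated genes and stress genes. Of 37 potassium channel genes described, Kcnh7 and Kcnn2 were higher and Kcnc4 and Kcnip1 lower. Of 16 calcium and HCN channel genes only Pex5l passed, and of 12 sodium channel genes and partners only Fgf13, which was lower (61.9, 107 and 83.1 against 259, 257 and 375 CPM). Of 20 glutamate receptor genes none was higher and 4 were lower, namely Gria4, Grik1, Grik3 and Grm3. Epha6, an ephrin receptor, was at 6577, 7238 and 7195 CPM in CA1 against 1917, 3125 and 2344 CPM and was the 1 higher gene of 57 in adhesion and wiring, where 9 were lower. Scn8a, on mm10 chromosome 15 from 100869858 to 101045938 (plus strand, ENSMUSG00000023033), stood at 427, 399 and 465 CPM in CA1 and 324, 321 and 371 CPM in other nuclei, with log2 ratios of 0.40, 0.32 and 0.32. It did not reach 2-fold in any mouse. A 3' count does not separate the alleles.

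CA1 was then compared with CA3 nuclei over the sums of each mouse, with mouse as a block in edgeR's quasi-likelihood test and genes of both rules left out. Genes count as called here when the Benjamini-Hochberg adjusted p was under 0.05 and the difference reached 2-fold, that is 1 on the log2 scale. Of 15972 genes tested, 1263 (7.91%) were called, with 552 (3.46%) higher and 711 (4.45%) lower in CA1. Both classes were chosen by marker genes, so these counts describe classes set apart by choice and their spread over 3 mice, and in sums over nuclei fewer nuclei of a type and less RNA per nucleus cannot be told apart. Without the block, 240 genes were called, 125 higher and 115 lower. With nuclei of at least 1000 UMIs thinned to that depth, 373 were called. Of the genes chosen by the naming rule, 9 were then too low to test (Drd2, Drd5, Dusp1, Exph5, Gm31615, Htr1b, Slc17a6, Ttn and Wfs1). In that fit Calb1 (1.06, adjusted p = 0.207), Kcnt1 (1.05, 0.118), Grin3a (1.30, 0.0831) and Adra1a (1.54, 0.0504) missed the adjusted p, and Gabrg3 (0.95, 0.000879) and Nr4a3 (-0.88, 0.0101) fell under 2-fold.

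Of the 12 genes named as most in excess in CA1 over CA3, 4 were predicted genes. Kcnh7, an ether-a-go-go related potassium channel gene on chromosome 2 (62693414 to 63184287, minus strand), stood at 1464, 1124 and 1557 CPM in CA1 against 95.8, 199 and 84.8 CPM in CA3, and the groups did not overlap (log2 fold change 3.52 ± 0.33 SE, adjusted p = 0.000892). Ntm, the adhesion protein neurotrimin, was at 1297, 995 and 1253 against 118, 163 and 81.5 CPM (3.31 ± 0.24). Pou3f1 was at 33.2, 24.5 and 34.2 against 2.66, 3.76 and 1.38 CPM (3.77 ± 0.28), its relative Pou3f3 at 36.3, 30.6 and 23.8 against 3.35, 5.26 and 1.75 CPM (3.28 ± 0.21), and the noncoding neighbour of Pou3f3, Pantr1, was higher as well (3.32 ± 0.19). Ror1 differed by 3.51 ± 0.22. Cdh6, a cadherin, was at 68.8, 49.3 and 263 CPM in CA1, highest in mouse 3, against 3.64, 11.0 and 4.44 CPM, and its log2 fold change of 4.36 ± 0.60 was 3.30 without mouse 3 and 5.16 without mouse 2. Fn1, fibronectin and a subicular marker, was at 39.0, 30.8 and 58.0 against 2.17, 7.01 and 2.11 CPM (3.82 ± 0.41), and the value dropped to 1.34 (adjusted p = 0.0287) when nuclei that met the subicular rule were left out.

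Genes higher in CA3 than in CA1 included Trps1, a zinc finger repressor, at 93.4, 144 and 196 CPM in CA1 against 1319.5, 1126 and 1709 CPM in CA3 (-3.34 ± 0.16). Cdh9, a cadherin of dentate and CA3 synapses, was at 64.0, 111 and 97.0 against 517, 529 and 825 CPM (-2.83 ± 0.17), and Car10, a carbonic anhydrase relative that binds neurexin, at 51.0, 69.3 and 90.2 against 410.5, 345 and 671 CPM (-2.78 ± 0.14). Ttn, the titin gene, was at 1.07, 2.96 and 1.92 against 24.6, 27.8 and 26.1 CPM (-3.89 ± 0.22) and Exph5, an effector of vesicle traffic, at 1.34, 1.43 and 1.19 against 21.9, 20.8 and 18.0 CPM (-3.97 ± 0.15). Mndal (-3.59), the chromatin subunit gene Dpf3 (-2.84), the anthrax toxin receptor Antxr2 (-2.80) and the prostaglandin dehydrogenase Hpgd (-2.79) were lower in CA1 too, with 3 predicted genes making up the rest. Antxr2 was high in mouse 3 in both classes (1.83, 3.27 and 20.5 CPM in CA1 and 17.6, 23.3 and 113 CPM in CA3). Leaving out nuclei that met both rules moved Exph5 to -5.05 and Dpf3 to -3.72.

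CA1 was compared with granule nuclei in the same way, and these results share the CA1 sums with the CA3 comparison. Of 15798 genes tested, 1784 (11.3%) were called, 970 (6.14%) higher and 814 (5.15%) lower in CA1. The limit on Gad1 and Gad2 left 898, 389 and 77 granule nuclei in mice 1, 2 and 3, whereas 1717, 651 and 1422 nuclei met the granule rule without it. With those nuclei 2582 genes were called, without mouse 1 the count was 1105, and without the block it was 798. With nuclei of at least 1000 UMIs thinned to that depth, 901 were called. Drd1, Egr2, Fgf11, Htr1b, Slc17a6 and Sstr4 were then too low to test, and Grm2 (-1.89, adjusted p = 0.0633) and Sik1 (-1.52, adjusted p = 0.0664) missed the adjusted p.

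Among the 12 genes highest in CA1 over granule nuclei, 6 were predicted genes. Gpc5 was at 2108, 1169 and 2392 CPM in CA1 against 103, 188 and 319 CPM in granule nuclei (3.33 ± 0.35), and Wnt2, a secreted Wnt ligand, at 15.7, 25.4 and 19.7 against 0.713, 3.22 and 0.416 CPM (3.93 ± 0.36). Fbn1 (3.35 ± 0.25), Gpr161 (3.44 ± 0.25), Cfap100 (3.76 ± 0.25) and the meiotic gene Shoc1 (3.38 ± 0.39) followed. Lower in CA1 were Synpr, the synaptic vesicle protein synaptoporin of mossy fibres, at 38.1, 109.6 and 11.9 against 1036, 876 and 274 CPM (-4.06 ± 0.37), and Stxbp6 at 27.6, 56.8 and 8.39 against 704, 486 and 150.2 CPM (-3.94 ± 0.32). Pappa, a protease that frees insulin-like growth factors, was at 2.60, 16.6 and 34.6 CPM in CA1 against 74.7, 196 and 1212 CPM in granule nuclei (-4.48 ± 0.32), and was highest in mouse 3 in both classes. Arr3 (-4.70), Prox1os (-4.17), Lemd1 (-4.11), Col27a1 (-4.04), Plpp4 (-4.01), the integrin subunit Itgb8 (-3.79) and Necab3 (-3.77) were lower as well, and 2 more were predicted genes. Prox1os is antisense to Prox1, which is one of the granule rule genes, so it shares a locus with a gene that chose the granule class. How fully reads of the pair are separated by strand was not tested.

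The textbook CA1 genes outside the rule separated CA1 from both classes in part. Of 10 tested against CA3, 8 were called, all higher (3.46% over all genes), with a list median of 1.79 on the log2 scale beside 0.0067 over all genes. Man1a was at 192, 219 and 626 CPM in CA3, where mouse 3 came close to its CA1 level (log2 fold change 1.18 ± 0.29). Calb1 was higher than in CA3 by 2.35 ± 0.28 (adjusted p = 0.00207), and stood at 43.2, 44.3 and 41.2 CPM in granule nuclei, which was not called (-0.71 ± 0.26, adjusted p = 0.119). Calb1 was called as lower than in granule nuclei without mouse 1 (-1.15, adjusted p = 0.0187). The same held under a stricter rule of 4 markers and 10 per 10000 (-1.28, adjusted p = 0.0146). Wfs1 was called against CA3 (1.43 ± 0.26, adjusted p = 0.0119; 0.0884 without mouse 2) and not against granule nuclei (0.20 ± 0.72, adjusted p = 0.887), where the 77 nuclei of mouse 3 held 39.5 CPM. Dcn, the proteoglycan decorin, was called against neither (1.28 ± 0.42 and 0.56 ± 0.73). Against CA3 Dcn was called with no filter on low counts (1.31, adjusted p = 0.014), without mouse 3 (1.54, 0.0229) and without doublet calls (1.49, 0.0337). Against granule nuclei 5 of 10 were called, all higher (6.14% over all genes), with a list median of 1.84 beside -0.0050 over all genes. Man1a, 1 of these 5 (2.82 ± 0.50, adjusted p = 0.0135), was not called without mouse 2 (adjusted p = 0.0519) or without the block (0.111).

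Of 10 general genes of glutamatergic neurons 2 were called against CA3 and 4 against granule nuclei, all higher. Over all genes 3.46% were higher than in CA3 and 6.14% higher than in granule nuclei. Slc17a7, the main vesicular glutamate transporter of the hippocampus, was at 286, 242 and 182 CPM in CA1, 306, 279 and 169 CPM in CA3 and 228, 203 and 116 CPM in granule nuclei and was called in neither comparison. Sv2b, a synaptic vesicle protein, was higher than in granule nuclei by 2.28 ± 0.31, and Neurod6, a differentiation factor of pyramidal cells, by 2.34 ± 0.31. Slc17a6, the subcortical and subicular glutamate transporter, was called as higher in both comparisons (2.61 ± 0.33 and 1.65 ± 0.31), but at 0.94 (adjusted p = 0.156) and -0.30 (adjusted p = 0.674) without nuclei of the subicular rule, of which Slc17a6 and Fn1 are themselves marker genes. It was also not called against granule nuclei without mouse 1 (adjusted p = 0.107).

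Of 44 transcription factors of cortical and hippocampal regions, 6 were higher and 2 lower against CA3 (3.46% and 4.45% over all genes). Bcl11b, a zinc finger factor of projection neurons, was at 275, 207 and 189.9 CPM in CA1 against 41.5, 53.1 and 18.6 CPM in CA3 (2.66 ± 0.23). Meis2, a homeobox factor, was at 199.7, 123 and 311 CPM in CA1, 51.8, 34.0 and 125 CPM in CA3 and 26.3, 26.1 and 57.4 CPM in granule nuclei (1.65 ± 0.15 and 2.59 ± 0.16). Nr3c1, the glucocorticoid receptor, was higher than in CA3 by 1.20 ± 0.10, while Lmo4 (-1.05 ± 0.12) and Nr2f2 (-1.18 ± 0.16) were lower. Against granule nuclei 11 of 44 were higher and 6 lower (6.14% and 5.15% over all genes). Mef2c, which limits synapse number in granule and cortical neurons, was at 77.4, 105 and 80.2 CPM in CA1 against 454, 477 and 664 CPM (-2.56 ± 0.18), and Sox11, a factor of young neurons, differed by -1.95 ± 0.17.

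Of 15 sodium channel genes and partners none was called against CA3, where 7.91% of all genes were. Scn3b, an auxiliary subunit, was higher by 0.52 ± 0.09 (adjusted p = 0.00962), which passed the adjusted p but did not reach 2-fold. Scn8a was at 376, 354 and 437 CPM in CA3 and 363, 335 and 378 CPM in granule nuclei. It was higher in CA1 in 3 of 3 mice in both comparisons, but by 0.12 ± 0.08 (adjusted p = 0.407) and 0.30 ± 0.11 (adjusted p = 0.120), and was called in neither. Against granule nuclei 2 of 15 were higher and 1 lower (6.14% and 5.15% over all genes). Scn1a, the channel gene better known from interneurons, was at 269.9, 233 and 328 CPM in CA1 against 128, 118 and 97.7 CPM (1.30 ± 0.19). The channel partner Fgf11 was higher by 1.59 ± 0.21, and its relative Fgf13 was at 61.9, 107 and 83.1 against 170.2, 210.2 and 422 CPM (-1.55 ± 0.24).

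Against CA3, calls were made for 5 higher and 4 lower of 40 potassium channel genes (3.46% and 4.45% over all genes), and the other members were not called. Beside Kcnh7, the A-type channel gene Kcnd2 was at 3696, 3547 and 4400.0 CPM in CA1 and 1797, 1916 and 1586 CPM in CA3 (1.10 ± 0.12), and its auxiliary subunit gene Dpp10 was higher by 1.08 ± 0.09. Kcnt1, a sodium-activated channel, was at 37.7, 19.5 and 35.4 against 12.1, 8.01 and 13.9 CPM (1.41 ± 0.12), and the leak channel gene Kcnk9 was higher by 1.23 ± 0.13. Kcnq5, which carries part of the M-current, was at 1171, 1196 and 1327 CPM in CA1 against 3779.9, 3142 and 2666 CPM in CA3 (-1.40 ± 0.12). Kcnc1, a fast delayed rectifier, was at 25.3, 24.5 and 34.3 against 68.7, 64.1 and 83.9 CPM (-1.41 ± 0.08), and Kcnk10 (-1.35 ± 0.16) and Kcnh1 (-1.02 ± 0.08) were lower too.

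Against granule nuclei 6 of 40 potassium channel genes were higher and 5 lower (6.14% and 5.15% over all genes). Kcnn2, a calcium-activated channel of small conductance, was at 718, 801 and 956 CPM in CA1 against 108, 179.8 and 179.7 CPM (2.47 ± 0.15). Kcnh7 was at 216, 316 and 373 CPM in granule nuclei (2.26 ± 0.20) and Kcnt1 at 5.26, 6.72 and 15.0 CPM (2.00 ± 0.31). Kcnq5 lay at 235, 501 and 364 CPM there, and its CA1 level was above granule nuclei (1.85 ± 0.22) and below CA3. Kcnc4 was at 8.94, 6.85 and 7.77 CPM in CA1 against 44.5, 46.8 and 15.4 CPM (-2.05 ± 0.34, adjusted p = 0.0106; 0.0517 without mouse 1), and Kcnk1 differed by -1.90 ± 0.16.

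Pex5l, whose protein binds HCN channels and controls their surface level, was at 1757, 1309 and 1812 CPM in CA1 against 352, 412 and 283 and 447, 524 and 518 CPM, and was called in both (2.19 ± 0.18 and 1.74 ± 0.17). Cacna1c, an L-type calcium channel, was at 442, 573 and 542 CPM in CA1, below 1149, 1143 and 1355 CPM in CA3 (-1.27 ± 0.10) and 1001, 1119 and 1481 CPM in granule nuclei (-1.16 ± 0.13). Cacna2d2 was higher than in CA3 by 2.05 ± 0.18, and Cacna2d3 (1.57 ± 0.17), the T-type gene Cacna1i (2.12 ± 0.33) and Hcn2 (1.09 ± 0.18) were higher than in granule nuclei. In all, 2 of 19 genes of this list were higher and 1 lower against CA3 (3.46% and 4.45% over all genes), and 5 of 20 higher and 1 lower against granule nuclei (6.14% and 5.15% over all genes).

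Among 23 glutamate receptor genes tested against CA3, 1 was higher and 1 lower, near the 7.91% called over all genes. Grik4, a high-affinity kainate receptor subunit, was at 198, 335 and 244 CPM in CA1 against 968, 1016 and 759 CPM (-1.88 ± 0.14). Grin3a, an NMDA receptor subunit of low calcium permeability, was at 51.9, 36.6 and 17.4 against 12.4, 15.3 and 11.9 CPM (1.26 ± 0.28, adjusted p = 0.0239), and was not called without mouse 1 (adjusted p = 0.0649) or mouse 2 (0.149). Against granule nuclei none of 24 was higher and 6 were lower (6.14% and 5.15% over all genes). The kainate subunits Grik2 (977, 919 and 829 against 3026, 2340.1 and 2263 CPM, -1.44 ± 0.13), Grik3 (-1.47 ± 0.14) and Grik4 (-1.01 ± 0.19) were among them, with Gria4 (-1.09 ± 0.28) and Grm2 (-1.94 ± 0.36). Grm2 had an adjusted p of 0.108 without mouse 1 and 0.0809 without mouse 2.

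Of 13 GABA-A receptor genes the same 2 were called as higher in each comparison, and none was lower. Over all genes 3.46% were higher than in CA3 and 6.14% higher than in granule nuclei. Gabra3, an alpha subunit, was at 51.0, 46.1 and 39.5 CPM in CA1 against 12.2, 14.5 and 10.5 CPM in CA3 (1.87 ± 0.12) and 6.51, 12.4 and 22.0 CPM in granule nuclei (1.99 ± 0.37, adjusted p = 0.0158; 0.0633 without mouse 2). Gabrg3, a gamma subunit, was at 552, 543 and 731 CPM against 259.7, 262 and 167 CPM (1.39 ± 0.20) and 45.5, 164 and 193 CPM (2.44 ± 0.37). Gabra5, the extrasynaptic alpha subunit known from CA1, was at 146, 143 and 199.8 CPM in CA1 and 176, 142 and 217 CPM in CA3 and was not called (-0.16 ± 0.08, adjusted p = 0.241).

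Of 40 genes of postsynaptic plasticity, 5 were higher and 2 lower against CA3 (3.46% and 4.45% over all genes), and 7 were higher and 2 lower against granule nuclei (6.14% and 5.15% over all genes). Itpr1, the calcium release channel gated by inositol trisphosphate, was at 379, 271 and 270.0 CPM in CA1, 89.6, 79.6 and 70.6 CPM in CA3 and 50.1, 63.2 and 76.5 CPM in granule nuclei (1.90 ± 0.10 and 2.33 ± 0.22). Homer2, a scaffold that links glutamate receptors to such stores, was at 113, 87.2 and 77.0 CPM against 37.3, 30.8 and 10.8 and 11.4, 18.3 and 18.3 CPM (1.94 ± 0.24 and 2.64 ± 0.25). The adenylyl cyclases Adcy1 (156, 98.6 and 138 against 35.0, 34.3 and 13.5 CPM, 2.34 ± 0.30) and Adcy8 (1.75 ± 0.20) and the kinase gene Itpka (1.66 ± 0.09) were higher than in CA3. Pde1a (2.26 ± 0.33), Prkcb (2.09 ± 0.21) and the ryanodine receptor gene Ryr3 (1.88 ± 0.16) were higher than in granule nuclei. Pde4d, a cyclic AMP phosphodiesterase, was below CA3 (-1.12 ± 0.09) and above granule nuclei (1.38 ± 0.19).

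Of 66 adhesion and wiring genes, 6 were higher and 10 lower against CA3 (3.46% and 4.45% over all genes). Against granule nuclei 11 were higher and 12 lower (6.14% and 5.15% over all genes). Tenm3, a teneurin that matches CA1 axons to their subicular targets, was at 1005, 865 and 1199 CPM in CA1 against 109, 192 and 139 CPM in CA3 and 171, 236 and 265 CPM in granule nuclei (2.80 ± 0.21 and 2.24 ± 0.17). Adgrl2, a latrophilin that binds teneurins, was at 184, 120.1 and 181 CPM in CA1 against 19.8, 23.8 and 10.9 CPM in CA3, and was called in both comparisons (3.22 ± 0.28 and 2.71 ± 0.40), and Adgrl3 was higher than in CA3 by 1.34 ± 0.11. The guidance genes Nrp2 (44.5, 58.3 and 58.6 against 255, 211 and 287 CPM, -2.27 ± 0.13), Slit2 (-2.05 ± 0.19), Unc5c (-1.48 ± 0.11), Dcc (-1.13 ± 0.09) and Ephb1 (-2.42 ± 0.15) were lower than in CA3. Against granule nuclei Epha6 (2.05 ± 0.16) and Cntnap2 (2.37 ± 0.24) were higher, and Cdh9 (-3.41 ± 0.19), Unc5d (-2.57 ± 0.27), Sema5a (-2.69 ± 0.44) and Sema3a (-2.50 ± 0.20) lower.

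**Figure D3:**
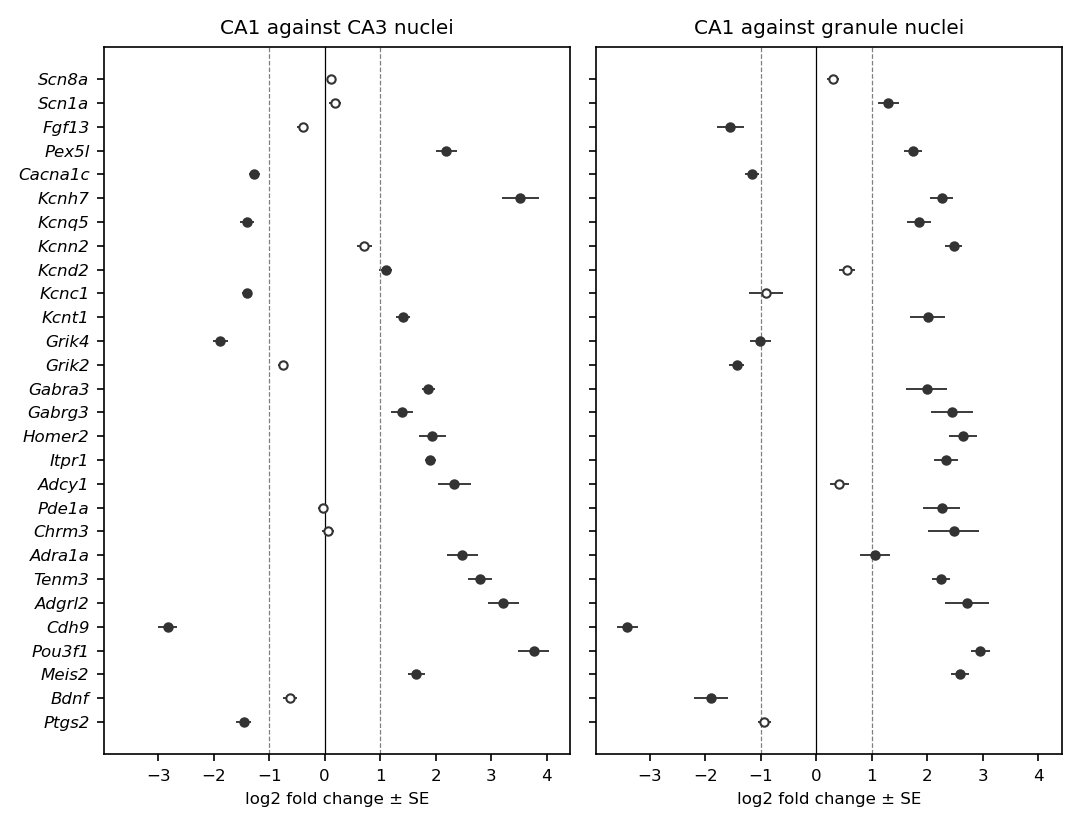
Log2 fold change of CA1 over CA3 nuclei (left) and over granule nuclei (right) for 28 genes of the fixed lists. Bars are standard errors derived from the quasi-likelihood F statistic of the fit over 3 mice. Filled points passed the adjusted p of 0.05 and 2-fold (dashed lines), open points did not. Scn8a lies near 0 in both panels, Kcnq5 lies on opposite sides, and Pex5l, Kcnh7, Tenm3, Adgrl2 and Pou3f1 lie to the right in both.

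Receptors for transmitters of ascending systems and for peptides were mostly scarce, and 5 of 39 were higher and 4 lower against CA3 (3.46% and 4.45% over all genes). Adra1a, an alpha adrenergic receptor, was at 21.9, 28.5 and 50.0 CPM in CA1 against 1.67, 8.26 and 9.75 CPM (2.48 ± 0.28), and Htr1b, a serotonin receptor of axon terminals, at 5.43, 3.37 and 5.24 against 0.394, 0.751 and 0.727 CPM (2.98 ± 0.34). Npy2r, a presynaptic neuropeptide Y receptor, was at 4.70, 6.44 and 7.01 against 17.9, 21.3 and 17.4 CPM (-1.67 ± 0.15). Drd5 (2.39; adjusted p = 0.100 without mouse 1 and 0.126 without mouse 2) and Drd2 (-2.54; 0.212 without mouse 2, 0.0596 without nuclei of both rules, 0.052 without nuclei of the subicular rule, 0.0632 without doublet calls and 0.0551 under the stricter rule) were under 4 CPM in both classes and were not called in those fits. Against granule nuclei 9 of 41 were higher and 8 lower (6.14% and 5.15% over all genes). Chrm3, a muscarinic receptor coupled to phospholipase C, was at 992, 944 and 847 CPM in CA1 against 67.8, 207 and 346 CPM (2.47 ± 0.47, adjusted p = 0.0170; 0.0591 without mouse 2). Cnr1, the cannabinoid receptor, was at 127, 124 and 158 against 18.1, 32.8 and 30.4 CPM (2.42 ± 0.19), and Drd1, a dopamine receptor of granule cells, at 0.917, 2.25 and 1.01 against 14.4, 11.6 and 21.2 CPM (-3.59 ± 0.40). Sstr4 was higher by 2.85 ± 0.65 (adjusted p = 0.0307; 0.144 without mouse 2). It rested on very few UMIs, at 2.94, 3.68 and 1.19 CPM in CA1 against 0.178, 0.537 and 0.832 CPM in granule nuclei.

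Activity-regulated genes called were mostly lower in CA1. Against CA3, none of 34 was higher and 4 were lower (3.46% and 4.45% over all genes), with a list median of -0.32 beside 0.0067 over all genes. Ptgs2, the inducible cyclooxygenase, was at 58.8, 31.7 and 105 CPM in CA1 and 193, 64.1 and 292 CPM in CA3 (-1.46 ± 0.13), and Nptx1, a pentraxin that gathers AMPA receptors, at 35.8, 26.8 and 13.4 against 80.9, 64.6 and 53.6 CPM (-1.51 ± 0.18). Nr4a3 (-1.13) was under 2-fold without mouse 2 (-0.80, adjusted p = 0.0324), and Dusp1 (-1.14) was not called without mouse 1 (adjusted p = 0.0948). Against granule nuclei 1 was higher and 8 lower (6.14% and 5.15% over all genes), with a list median of -0.85. Bdnf, the neurotrophin gene, was at 119.5, 103 and 582 CPM in CA1 and 671, 493 and 1218 CPM in granule nuclei (-1.90 ± 0.30, adjusted p = 0.00980; 0.0545 without mouse 2). Pcsk1, a prohormone convertase, was at 36.4, 31.0 and 88.4 against 183, 123 and 241 CPM (-1.88 ± 0.20). Egr2 (-2.32 ± 0.22) and Sik1 (-2.14 ± 0.32) were lower, and the phosphatase gene Dusp5 was higher (65.6, 25.2 and 58.4 against 35.4, 6.99 and 20.4 CPM, 1.36 ± 0.20). Of 13 stress genes none was called against CA3, and only Atf3 against granule nuclei, at 0.688, 0.102 and 0.940 CPM in CA1 and 20.9, 1.61 and 17.5 CPM in granule nuclei (-4.47 ± 0.31).

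Within CA1, the activity-regulated list had the largest share of members differing 2-fold between mice among the 13 lists. Of 5067 genes with at least 20 CPM in CA1 of every mouse, 466 (9.2%) differed 2-fold or more between the highest and the lowest mouse, and of the 14 activity-regulated genes among them 12 did. The median ratio of highest to lowest mouse was 3.37 for these 14 genes and 1.38 for all 5067. The summed level of all 34 genes was 3249 CPM in mouse 1 (95% exact Poisson interval 3227 to 3271), 2428 in mouse 2 (2397 to 2459) and 5341 in mouse 3 (5314 to 5369). The other nuclei had the same order, with 3731, 2340 and 6642 CPM. With 1 library per mouse there is no test, and mouse, batch and depth cannot be told apart. The same holds for the Cell Ranger version, which differed for mouse 3.

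The genes did not share 1 order. Mouse 2 was lowest for 28 of the 34, mouse 1 highest for 17 and mouse 3 for 16. Npas4, an early factor induced by calcium entry, was at 116, 9.81 and 62.8 CPM, and Fosb at 51.0, 2.35 and 19.1, Arc at 82.3, 13.8 and 25.1, Egr1 at 55.8, 9.71 and 33.2 and Nr4a1 at 263, 53.5 and 187 CPM, each highest in mouse 1. Bdnf at 119.5, 103 and 582 CPM, Inhba, an activin subunit, at 21.8, 71.7 and 201, Nptx2 at 104, 48.8 and 256 and Sorcs3, a receptor of the sortilin family, at 572, 1025 and 1949.6 CPM were highest in mouse 3. Homer1 (667, 632 and 871 CPM) had the smallest ratio of highest to lowest mouse of the 34. The 14 stress and RNA quality genes without Malat1 summed to 456, 361 and 358 CPM in mice 1, 2 and 3, an order other than that of the activity genes.

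**Figure D4:**
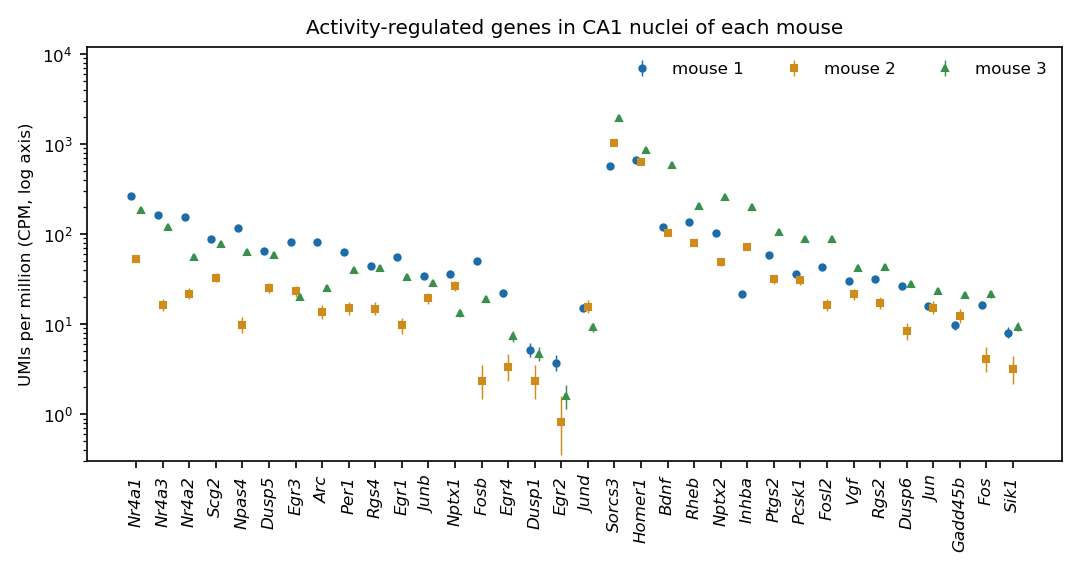
Level of 34 activity-regulated genes in the summed CA1 nuclei of each mouse, in CPM on a log axis, with 95% exact Poisson intervals that cover counting error only. Genes are grouped by the mouse in which they stand highest (mouse 1, then Jund for mouse 2, then mouse 3). Npas4, Fosb and Arc are highest in mouse 1, Bdnf, Inhba and Nptx2 in mouse 3, and mouse 2 is lowest for 28 genes.

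Of 30 potassium channel genes at 20 CPM or more, 7 differed 2-fold between mice, and of 11 GABA-A receptor genes none did. Over all 5067 genes at that level 9.2% did, so none of 11 is near the share over all genes. Scn8a (427, 399 and 465 CPM) did not differ 2-fold.

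Variation among CA1 nuclei was ranked within each mouse on counts thinned to 2000 UMIs per nucleus, by the variance over the mean. The ranks were averaged over the 3 mice for 4392 genes with a mean of at least 0.05. The first was Malat1, a nuclear noncoding RNA, with a variance over mean of 24.8, 82.2 and 17.6. It was followed by Dpp10 (8.19, 6.40 and 7.70), the A-type channel subunit that was also higher in CA1 than in CA3, and by Lrrtm4 (8.90, 4.24 and 7.47), a synaptic organiser, and Kcnip4 (5.45, 3.48 and 8.32), another A-type channel subunit. The teneurins Tenm3 (5.19, 3.56 and 5.79) and Tenm2 (3.96, 3.02 and 3.94), the ephrin receptor Epha6, the protocadherin Pcdh15, the contactin Cntn5 and the phosphatase Ptprd are adhesion proteins in the same set of 15. Sgcz, the subicular marker Tshz2 (3.88, 2.76 and 4.98), Galntl6, the growth factor Nrg1 and Kcnq5 (3.23, 3.29 and 4.06) completed it. Of the 15, 14 stood among the first 15 after thinning to 1000 UMIs.

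The superficial-cell gene Calb1 and the dorsal-cell gene Wfs1 were too sparse to divide the members fully. After thinning to 2000 UMIs, Calb1 had a UMI in 7.12%, 3.65% and 3.28% of CA1 nuclei (25.2%, 12.2% and 25.1% unthinned) and Wfs1 in 2.08%, 2.47% and 2.62% (14.6%, 9.35% and 27.0%). Nuclei with no UMI of a gene need not lack it. In the same edgeR test with a minimum log2 fold change of 0.5, 4 of 8992 genes (0.0445%) differed between nuclei with and without a Calb1 UMI. Kirrel3, an adhesion protein, was at 1036, 806 and 875 CPM with and at 502, 379 and 360.2 CPM without Calb1 (0.93 ± 0.21 SE, adjusted p = 0.0247). The kinase gene Alk was higher too (1.95 ± 0.44), at 72.9, 145 and 50.0 against 11.2, 30.5 and 34.7 CPM. Kcnq5 was at 583, 919 and 350.0 CPM with and at 1087, 1200.2 and 1122 CPM without Calb1 (-1.06 ± 0.22), and Tshz2 at 83.3, 0 and 125 against 187, 143 and 287 CPM (-1.64 ± 0.34).

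These calls rested on few nuclei, 96, 31 and 20 with a Calb1 UMI, and each was lost when some mouse was left out: Alk and Kirrel3 without mouse 1, Alk and Tshz2 without mouse 2 and Kcnq5 without mouse 3. On full counts, an alternative chosen after these data were seen, 215 genes were called, among them these 4 and Dcn (1.92, adjusted p = 0.00346), with depth unmatched between the arms. For Wfs1 only mice 1 and 2 had 20 nuclei with a UMI, and 3 of 9079 genes (0.033%) were called, all lower with Wfs1. They were Cpne4, a gene of the CA3 rule (-2.96 ± 0.68 SE), Tshz2 (-2.61 ± 0.58) and Zfpm2 (-1.95 ± 0.42). The sums with Wfs1 held 28 and 21 nuclei with 56000 and 42000 UMIs in all, so these calls rest on very few UMIs. Cpne4 was at 0 and 47.6 CPM with and at 86.7 and 198 CPM without Wfs1. Tshz2 was at 35.7 and 23.8 against 183 and 141 CPM, and Zfpm2 at 35.7 and 119 against 172 and 318 CPM. DESeq2 called none (31 genes had an unadjusted p under 0.05, beside 371 in edgeR). On full counts 86 genes were called in edgeR, of which only Cpne4 was among these 3. Tshz2 was then at -0.27 (adjusted p = 0.566) and Zfpm2 at -0.24 (adjusted p = 0.587). Scn8a (-0.12 ± 0.23) was not called in the Calb1 split.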

How the data were processed

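The authors deposited raw UMI counts per gene and nucleus for 32285 genes, made with Cell Ranger 7.0.0 (mice 1 and 2) and 7.1.0 (mouse 3) per the file headers, with the build mm10 listed in the submitters' processing notes. The handling of intronic reads is stated in no source used here. Members and gene lists were chosen with earlier results of these data known.

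Counts were summed per mouse and class and given as CPM. CA1 was set against other nuclei by log2 ratios with 1 CPM added. Classes were tested with edgeR 4.0.16 (quasi-likelihood, TMM, filterByExpr, mouse as a block, Benjamini-Hochberg over all genes tested), with DESeq2 1.42.0 as an alternative. Each SE is the absolute log2 fold change over the square root of the quasi-likelihood F statistic, and is not a spread computed over the mice. Doublets were scored with Scrublet in scanpy 1.11.5 and kept. Both sums of a pair came from 1 animal, and their deviations correlated at 0.729, 0.580 and 0.789 (CA3) and 0.610, 0.530 and 0.610 (granule). On simulated CA1 and CA3 counts (15653 genes), 76% of 100 genes changed 2-fold and 100% of 99 changed 4-fold passed the adjusted p alone. Unchanged genes that passed both the adjusted p and 2-fold numbered 10. The genes changed 2-fold had a median absolute log2 fold change of 0.973, under the limit of 1, so fewer of them would be called. Genes named were the 15 highest and 10 lowest against other nuclei, the 12 most changed per direction against CA3 and granule nuclei, up to 4 called per list, and a few fixed genes; others were added for their role. A few items are not reported here.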

Additional observations from a re-analysis of the deposited data

How the results depend on the processing

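The number of genes past 2-fold against other nuclei was 896 with no minimum CPM and 28 at a log2 ratio of 2. Without the replicate block, 240 genes were called against CA3, 798 against granule nuclei, 0 in the Calb1 split (162 at an unadjusted p under 0.05) and 0 in the Wfs1 split (364). Thinned to 1000 UMIs, 373 were called against CA3 and 901 against granule nuclei. Leaving out 1 mouse gave 864 (without mouse 2) to 1179 calls against CA3 and 1105 (without mouse 1) to 1876 against granule nuclei. The Calb1 split gave 1 call with DESeq2, 13 with RLE factors, 7 without the filter and 215 on full counts. The Wfs1 split gave 0 with DESeq2, 0 with RLE factors (307 at an unadjusted p under 0.05), 8 without the filter and 86 on full counts. The share of CA1 nuclei averaged 6.49% at 10 or more per 10000. It averaged 0.723% on nuclei thinned to 1000 UMIs, where the need for 3 markers is a stricter limit. The activity sum of mouse 1 was 3226 CPM without doublet calls. Apart from that stricter limit, the cause of these shifts was not tested.

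Against granule nuclei, Wfs1 turned to -0.57 without the replicate block, -0.50 without mouse 1 and -0.36 without mouse 2, Dcn to -0.49 without mouse 1 and -0.0046 under the stricter rule, and Slc17a6 to -0.30 without nuclei of the subicular rule. In the Calb1 split Scn8a turned to 0.0014 with RLE factors, 0.10 without mouse 3, 0.12 without doublet calls and 0.056 on full counts. Leaving out 1 mouse gave -0.50 to 1.57 for Wfs1 and -0.49 to 1.76 for Dcn against granule nuclei (both called without mouse 3), and -0.28 to 0.10 for Scn8a in the Calb1 split. In the Wfs1 split Scn8a turned to 0.13 on full counts. For single genes, 1316 values under other settings listed at the start kept direction and call, 87 lost the call, 7 gained it and 8 reversed, and under those added later 194, 4, 3 and 3 did so. The alternatives chosen after seeing the data were those without subicular-rule nuclei, with granule nuclei regardless of Gad1 and Gad2, and on full counts. The Calb1 split at 1000 UMIs and the thinned, doublet and leave-one-out forms of the Wfs1 split were not run, since fewer than 2 mice had 20 nuclei in both arms.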

Other observations

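The 12 genes that differed most between the CA1 nuclei of the 3 mice, among those with at least 20 CPM in every mouse, were chosen after their values were seen. Mouse 3 was highest for 11 of them and mouse 1 for 1. Mir670hg stood at 131, 208 and 1650.0 CPM in CA1 of mice 1, 2 and 3 and at 58.9, 147 and 1362 CPM in other nuclei. Rph3a, which encodes the vesicle protein rabphilin, stood at 20.9, 39.0 and 163 CPM in CA1 and 96.9, 84.6 and 224 CPM in other nuclei, and Zfp804a at 636, 820.3 and 4744 and 547, 733 and 4138 CPM. Cdh6, one of the genes furthest above CA3, stood at 68.8, 49.3 and 263 CPM in CA1 and 28.2, 30.5 and 55.4 CPM in other nuclei. For 12 of the 12 the same mouse was highest in the other nuclei of its library. Mouse 3 was also the deepest library and the only one made with Cell Ranger 7.1.0. Mouse, batch, depth and software version cannot be told apart in these values.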
